A study of Camellia sinensis with 15 samples.

Results

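The comparison described here set roots of tea plants (Camellia sinensis) exposed to arsenic (As) for 10 d (As1) against roots of untreated plants (CK). It used the 6 libraries whose labels name As1 or CK, 3 of each, out of 15 labelled libraries in the series. Of 59128 genes in the tables, the 28896 that reached an FPKM of 1 in 3 or more of these 6 libraries were tested. FPKM is the number of fragments scaled by transcript length and by the size of the library, so it can be set side by side between genes of different length. The series also covers roots after 15 d of As (As2) and after 10 d or 15 d of cadmium (Cd1 and Cd2). Their libraries entered the same statistical model, so they shared in the estimate of the spread behind the p-values of single genes. Their levels appear below only where As1 was compared with them.

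All plants were wild type seedlings of the cultivar Fuding Dabaicha, 2 years old and grown in pots, and the tissue was root. The As1 plants had been poured with an arsenic solution of 120 mg/kg, and CK plants were untreated. The 10 d of As1 come from the methods of the study, whereas the labels give day 15 for every library, CK included. The methods do not state when the CK roots were harvested, so As exposure and harvest time cannot be told apart. The oxidation state of the arsenic is given in more than 1 way in the sources and is not named here. No label says whether the replicates came from separate plants, so the p-values measure the spread between these libraries, which may be technical.

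Arsenate enters plant roots through phosphate transporters and arsenite through aquaporin channels. Inside the cell, arsenite binds thiol groups, and plants detoxify it with glutathione and phytochelatins, which bind it for storage in the vacuole. Drought, salt and metal stress share parts of a common response in plants, in which abscisic acid, transcription factors of the AP2/ERF and MYB families and the raffinose sugars take part. Gene products were paired here with 22 genes, all of them named in the study, and the other genes are known only by identifier. The root label could therefore not be checked against markers of root cells. In RNA of whole roots, fewer cells of a type and less RNA per cell cannot be told apart.

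The 6 libraries held between 10898773 and 13367944 fragments assigned to genes. Across the genes tested, Pearson's r of log2(FPKM + 1) ranged from 0.927 to 0.945 between As1 libraries, from 0.911 to 0.944 between CK libraries and from 0.865 to 0.923 between an As1 and a CK library. Genes are not independent replicates, so these values only describe how alike the libraries were. Genes with an FPKM above 0 numbered 37658, 35674 and 37407 in the As1 libraries, against 39152, 38537 and 39868 in the CK libraries. All 3 As1 libraries lay below all 3 CK libraries. The means were 36913 ± 1080 genes in As1 and 39186 ± 666 genes in CK (SD, n = 3 each), a difference of -2273 genes or -5.8%. The exact permutation test gave a two-sided p of 0.1, the smallest that 3 libraries against 3 allow. At an equal 10898773 fragments per library the difference was -2329 genes. Of the 59128 genes in the tables, 432 were above 0 in all CK libraries and at 0 in all As1 libraries. Their median CK FPKM was 0.575, and 28 of them were among the genes tested. The opposite pattern was found for 59 of the 59128 genes, with a median As1 FPKM of 0.493. Both medians were below the FPKM of 1 used in the filter.

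After 10 d of As, most of the genes that differed from untreated roots were lower. Products were paired only with 22 genes, which the study had chosen on these same libraries. Those that were lower included 4 genes of raffinose synthesis, 1 of abscisic acid synthesis and 1 of metal binding. The last, a HIPP gene (CSS0006162), had 1.88 ± 1.31 FPKM in As1 and 81.6 ± 22.3 FPKM in CK (SD, n = 3 each). Among all genes tested, fewer were higher than lower. The AP2/ERF transcription factor gene CSS0018401 was higher, with 263 ± 44.7 FPKM in As1 and 124 ± 11.3 FPKM in CK (SD, n = 3 each). Its mean in Cd2 was 286 FPKM. To find genes that differed, log2(FPKM + 1) of all 14 libraries used was fitted with limma, in 1 model of 5 groups. Genes with a Benjamini-Hochberg FDR under 0.05 and an absolute log2 fold change above 1 were taken as differentially expressed genes (DEGs). In As1 vs. CK, 591 DEGs were found, of which 120 were higher and 471 were lower in As1. This is 0.415% of the genes tested in the higher direction and 1.63% in the lower direction, and 79.7% of the DEGs were lower. With only the As1 and CK libraries in the fit, 50 DEGs were higher and 202 were lower. With all 14 libraries after quantile normalization, 157 DEGs were higher and 321 were lower, or 67.2% lower. Without the fold threshold, 231 genes were higher and 510 were lower at the same FDR. At an unadjusted p under 0.05, also without the fold threshold, 2524 genes were higher and 3260 were lower, so the split was less uneven there. With the fold threshold kept, the same unadjusted p gave 465 higher and 1749 lower. The median log2 fold change of all genes tested was -0.01, and the 5th and 95th percentiles were -1.20 and 0.725.

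**Figure D1:**
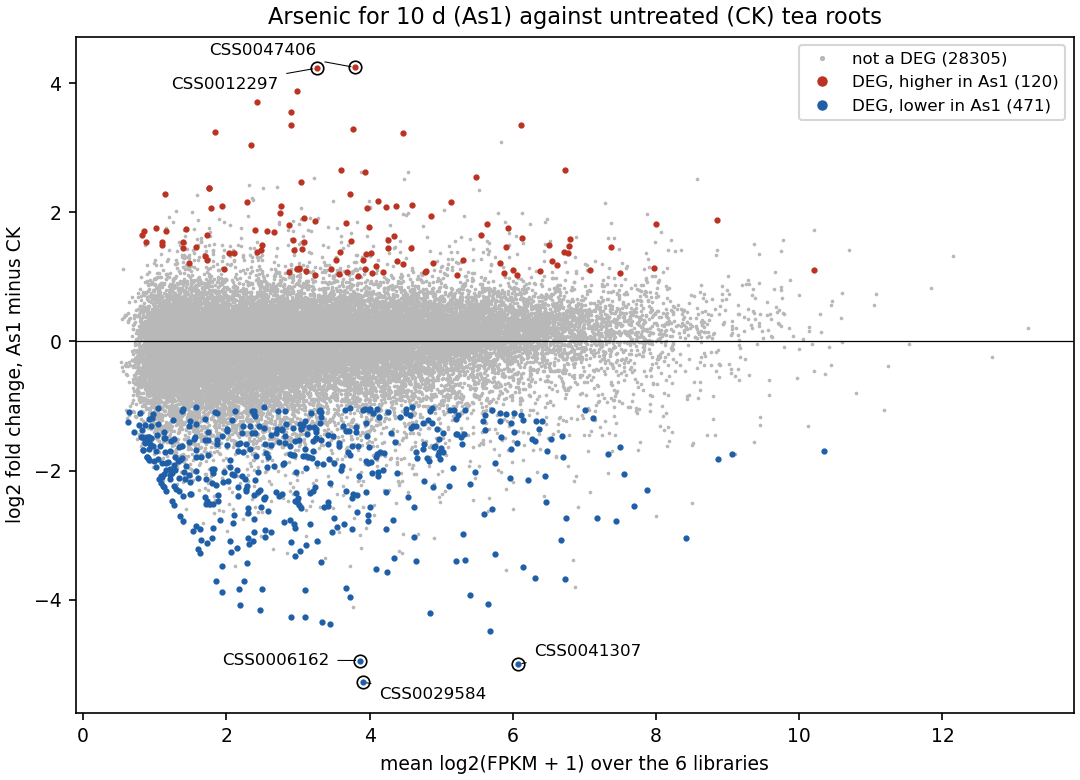
Log2 fold change of As1 minus CK (vertical axis) against the mean log2(FPKM + 1) over the 6 libraries (horizontal axis) for 28896 genes, with grey points for genes that were not DEGs. The 120 higher DEGs (red) and the 471 lower DEGs (blue) occurred at low and high levels, and the 5 circled genes are described in the text.

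The share of DEGs was larger at higher levels in both directions. Among genes with a mean FPKM of 1 to 10 over the 6 libraries, 0.288% were higher and 1.55% were lower in As1. Between 10 and 100 FPKM these shares were 0.526% and 1.71%, and from 100 FPKM upward they were 1.1% and 2.07%. Fold changes were taken on the log2(FPKM + 1) scale, on which low genes appear to change less than they do.

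The 120 higher DEGs had a median log2 fold change of 1.54, between 1.02 and 4.24. Most of the changes were moderate, with 90 DEGs between 1 and 2, 19 between 2 and 3, 9 between 3 and 4 and 2 above 4. The median over these genes of the mean FPKM was 23.9 in As1, against 6.54 in CK. Thus the higher DEGs were mostly genes already present in untreated roots, and 44 of them had a mean FPKM of at least 10 in CK. Only 3 were at 0 in all CK libraries, and with those 3 genes set at a floor of 3 fragments per CK library the median log2 fold change was 1.49. Together the higher DEGs took 1.19%, 1.08% and 1.21% of the fragments of the As1 libraries, against 0.384%, 0.473% and 0.370% of the CK libraries. Of the 120 genes, 16 were gene models without a CSS identifier, which is 13.3%, beside 12.7% of all genes tested.

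The 471 lower DEGs had a median log2 fold change of -1.80, between -1.01 and -5.28. There were 278 genes between -1 and -2, 139 between -2 and -3, 42 between -3 and -4 and 12 below -4. The median mean FPKM was 2.77 in As1, against 15.0 in CK. In 111 of these genes no As1 library reached an FPKM of 1, and 21 were at 0 in all As1 libraries. With those 21 genes at a floor of 3 fragments per As1 library, the median log2 fold change was -1.79. The lower DEGs took 0.626%, 0.555% and 0.459% of the fragments of the As1 libraries, against 2.49%, 2.05% and 2.59% of the CK libraries. At the upper end, 49 of them had a mean FPKM of at least 100 in CK, whereas 8 reached that level in As1. Gene models without a CSS identifier made up 35 of the 471, or 7.43%.

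The filter on low values bears on the number of lower DEGs. A gene that reaches 1 FPKM in the 3 CK libraries and in no As1 library passes it through CK alone, and 445 genes did so, of which 111 were DEGs. The reverse was the case for 94 genes, of which 14 were DEGs. Among the 22634 genes that reached 1 FPKM in all 6 libraries, 89 DEGs were higher and 262 were lower in As1. Of the genes tested, 2022 reached 1 FPKM in exactly 3 libraries, and 2369 genes with exactly 2 such libraries were not tested.

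In each of the 591 DEGs the As1 and CK libraries did not overlap, a condition that 12.0% of all genes tested met with As1 above CK and 12.6% with As1 below CK. To see whether the DEGs of As1 vs. CK stood out from the other treatments too, their levels were read in the 11 libraries of the other groups, CK included. In 77 of the 120 higher DEGs, or 64.2%, every As1 library was above all 11 others, which held for 798 of the 3474 genes tested with As1 wholly above CK, or 23.0%. In 139 of the 471 lower DEGs, or 29.5%, every As1 library was below all 11 others, beside 608 of the 3630 genes tested with As1 wholly below CK, or 16.7%. The DEGs were chosen by the difference of As1 from CK, with a spread estimated over all groups, so these shares are a description. The levels in the 8 libraries of Cd1, Cd2 and As2 did not set that difference, but their spread bore on the calls. The genes set beside the DEGs had no fold or FDR threshold, so the shares are not like for like.

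The median mean FPKM of the higher DEGs was 23.9 in As1, 8.51 in Cd1, 8.42 in As2, 7.69 in Cd2 and 6.54 in CK. Their median in the 3 other treated groups therefore lay nearer to CK than to As1. For the lower DEGs the medians were 2.77 in As1, 5.02 in Cd1, 9.83 in As2, 10.7 in Cd2 and 15.0 in CK. Here both 10 d groups were low and both 15 d groups lay nearer to CK. The share of fragments in the lower DEGs was 0.824% and 0.861% in the Cd1 libraries, between 2.28% and 2.47% in the Cd2 libraries and between 1.71% and 2.98% in the As2 libraries.

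**Figure D2:**
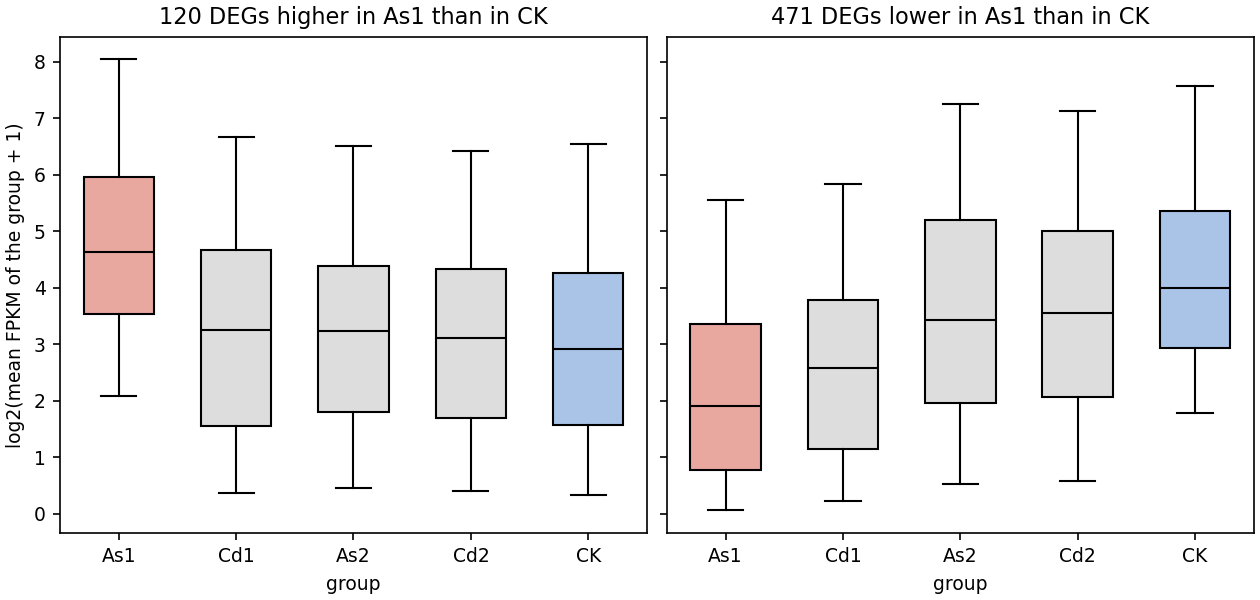
Levels of the 120 higher DEGs (left) and the 471 lower DEGs (right) of As1 vs. CK in the 5 groups, as log2 of the group's mean FPKM + 1. Boxes show the quartiles and the median, and whiskers the 5th and 95th percentiles over genes. As1 is in red, CK in blue and the groups whose levels did not enter the fold change in grey. The median of the higher DEGs was 23.9 FPKM in As1 and at most 8.51 FPKM elsewhere, and that of the lower DEGs was 2.77 FPKM in As1 and 5.02 FPKM in Cd1.

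Tests of As1 against the other treatments were made in the same fit. Against As2, 192 genes were higher (0.664%) and 513 were lower (1.78%) in As1. Against Cd1, 408 genes were higher (1.41%) and 146 were lower (0.505%) in As1. The filter on low values used the As1 and CK libraries alone. Genes that reached its minimum only in As2 or Cd1 were therefore not tested and could not be counted as lower in As1. Cd1 entered with 2 libraries, since its replicate 3 held the same values and the same header as Cd2 replicate 1.

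On the log2(FPKM + 1) scale the largest increase was that of CSS0047406, a gene with no product paired here. Its FPKM was 91.8, 39.9 and 57.6 in the As1 libraries, against 0.761, 4.93 and 2.14 in the CK libraries. The lowest As1 library was well above the highest CK library. The mean was 63.1 ± 26.4 FPKM in As1 and 2.61 ± 2.13 FPKM in CK (SD, n = 3 each), a ratio of 24.2. The log2 fold change was 4.24 ± 0.52 (SE), with a limma adjusted p of 0.00212. It was 4.18 against As2 and 4.97 against Cd1, with limma adjusted p of 0.00121 and 0.00212. Its mean FPKM was 0.98 in Cd1, 2.47 in As2 and 3.05 in Cd2, so the high level was seen in As1 only among the 5 groups.

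CSS0012297, likewise without a paired product, was more even between libraries and rose by a larger ratio of mean FPKM. FPKM values of 31.4, 39.6 and 54.3 were found in the As1 libraries, against 1.19, 1.13 and 1.34 in the CK libraries. The As1 mean of 41.7 ± 11.6 FPKM was 34.2 times the CK mean of 1.22 ± 0.108 FPKM (SD, n = 3 each). A log2 fold change of 4.23 ± 0.24 (SE) resulted, with a limma adjusted p of 6.99e-06. The other treated groups did not exceed CK, with means of 0.359 FPKM in Cd1, 0.724 FPKM in As2 and 0.602 FPKM in Cd2. As1 was higher by 4.61 than As2 and by 4.94 than Cd1 on the log2 scale (limma adjusted p 1.93e-06 and 4.11e-06).

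On the log2(FPKM + 1) scale the largest decrease was that of CSS0029584. It had 1.27, 4.61 and 0.0905 FPKM in the As1 libraries, against 84.2, 194 and 47.7 FPKM in the CK libraries. In both groups replicate 2 was the highest and replicate 3 the lowest, and the groups were far apart. As1 replicate 3 held only 2 fragments of this gene. On the log2 scale As1 minus CK was -5.28 ± 0.70 (SE), with a limma adjusted p of 0.00368. Means of 5.10 FPKM in Cd1, 9.35 FPKM in As2 and 25.5 FPKM in Cd2 lay between those of As1 (1.99 FPKM) and CK (109 FPKM). The differences of As1 from As2 and from Cd1 were -1.79 and -1.29, with limma adjusted p of 0.186 and 0.387. By the ratio of mean FPKM other genes fell further, such as CSS0048624, with 0.114 FPKM in As1 and 26.2 FPKM in CK.

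CSS0041307, the other gene of large decrease, was abundant in untreated roots. It had 20.3, 14.3 and 4.17 FPKM in the As1 libraries, against 623, 341 and 256 FPKM in the CK libraries. The highest As1 library was below the lowest CK library by more than a factor of 10. In the fit As1 minus CK came to -5.00 ± 0.55 (SE), with a limma adjusted p of 0.00102. As1 was also below As2, where the mean was 194 FPKM, by -3.99 (limma adjusted p 0.00245). Against Cd1, with a mean of 40.9 FPKM, the difference was -1.82 (limma adjusted p 0.13). These 4 genes kept their call in all 21 other fits made for named genes.

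The 22 genes with a product were then described by role. All 22 passed the filter on low values. Among them 1 was higher and 12 were lower in As1 than in CK, and their median log2 fold change was -1.96, beside -0.01 over all genes tested. Of all genes tested, 0.415% were called higher and 1.63% lower. The As1 and CK libraries did not overlap in 18 of the 22. Among all genes tested, 12.0% met this condition with As1 above CK and 12.6% with As1 below CK. The study chose these genes on these same libraries, so the counts describe the genes and are not independent evidence of a direction.

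Galactinol synthase (GolS) makes galactinol from UDP-galactose and myo-inositol, the first step towards the raffinose family of sugars, which accumulate in many plants under drought, cold and heat. All 4 genes of this pathway among the 22, 3 GolS genes and 1 raffinose synthase gene, fell in As1, with a median log2 fold change of -2.82. CSS0035212 was the most abundant GolS gene in untreated roots. It had 9.96, 6.15 and 4.87 FPKM in the As1 libraries, against 72.6, 65.3 and 109.6 FPKM in the CK libraries. The groups were far apart, and the As1 mean of 6.99 ± 2.65 FPKM was below the CK mean of 82.5 ± 23.7 FPKM by a factor of 11.8 (SD, n = 3 each). The log2 fold change was -3.40 ± 0.33 (SE), with a limma adjusted p of 0.000764.

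A second GolS gene, CSS0001107, had 6.48, 5.62 and 3.81 FPKM in the As1 libraries, against 39.4, 30.2 and 49.5 FPKM in the CK libraries. Its log2 fold change was -2.69 ± 0.25 (SE), with a limma adjusted p of 0.000637. The third, CSS0019367, had 3.34, 4.28 and 1.77 FPKM in As1, against 23.3, 25.6 and 44.8 FPKM in CK. Here the log2 fold change was -2.96 ± 0.31 (SE), with a limma adjusted p of 0.000878. In all 3 GolS genes As1 replicate 3 was the lowest of the 6 libraries and CK replicate 3 the highest.

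Raffinose synthase transfers the galactosyl group of galactinol to sucrose, which gives raffinose. The raffinose synthase gene CSS0050491 had 1.04, 0.959 and 0.186 FPKM in the As1 libraries, against 8.26, 4.30 and 8.73 FPKM in the CK libraries. These FPKM rest on 31, 28 and 6 fragments in As1 and on 259, 113 and 264 fragments in CK. The groups did not overlap, and the log2 fold change was -2.22 ± 0.37 (SE), with a limma adjusted p of 0.0124. Without As1 replicate 3 or without CK replicate 3 the limma adjusted p was 0.0605 and 0.0561.

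Heavy metal-associated isoprenylated plant proteins (HIPPs) carry a metal-binding domain and a lipid anchor and are studied for their part in metal transport and tolerance. The study names CSS0006162 as a HIPP gene in its results, while its discussion also lists it among the GolS genes. Its product was taken from the results and was not checked here. CSS0006162 showed the largest change of the 22 genes. It had 2.60, 2.66 and 0.370 FPKM in the As1 libraries, from 26, 26 and 4 fragments. In the CK libraries it had 106, 62.8 and 75.8 FPKM, from 1114, 551 and 766 fragments. The As1 mean of 1.88 ± 1.31 FPKM was below the CK mean of 81.6 ± 22.3 FPKM by a factor of 43.5 (SD, n = 3 each). A log2 fold change of -4.94 ± 0.35 (SE) resulted, with a limma adjusted p of 6.27e-05, and it stayed between -5.18 and -4.47 when any 1 of the 6 libraries was left out.

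NCED (9-cis-epoxycarotenoid dioxygenase) cleaves carotenoid precursors in the rate-limiting step of abscisic acid synthesis. The NCED gene CSS0033791 had 1.84, 0.310 and 1.02 FPKM in the As1 libraries, against 14.4, 5.05 and 10.6 FPKM in the CK libraries. Replicate 2 was the lowest in both groups, and the highest As1 library was below the lowest CK library. On the log2 scale As1 minus CK was -2.39 ± 0.38 (SE), with a limma adjusted p of 0.00887. The adjusted p was 0.0542 in a limma fit of the As1 and CK libraries alone.

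Ethylene response factors (ERFs) are transcription factors of the AP2/ERF family that act in hormone and stress responses. The ERF gene CSS0000647 had 1.25, 0.700 and 1.16 FPKM in the As1 libraries, against 14.1, 8.96 and 16.0 FPKM in the CK libraries. The As1 mean of 1.04 ± 0.296 FPKM was lower than the CK mean of 13.0 ± 3.64 FPKM by a factor of 12.5 (SD, n = 3 each). In the fit As1 minus CK came to -2.76 ± 0.32 (SE), with a limma adjusted p of 0.00143.

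**Figure D3:**
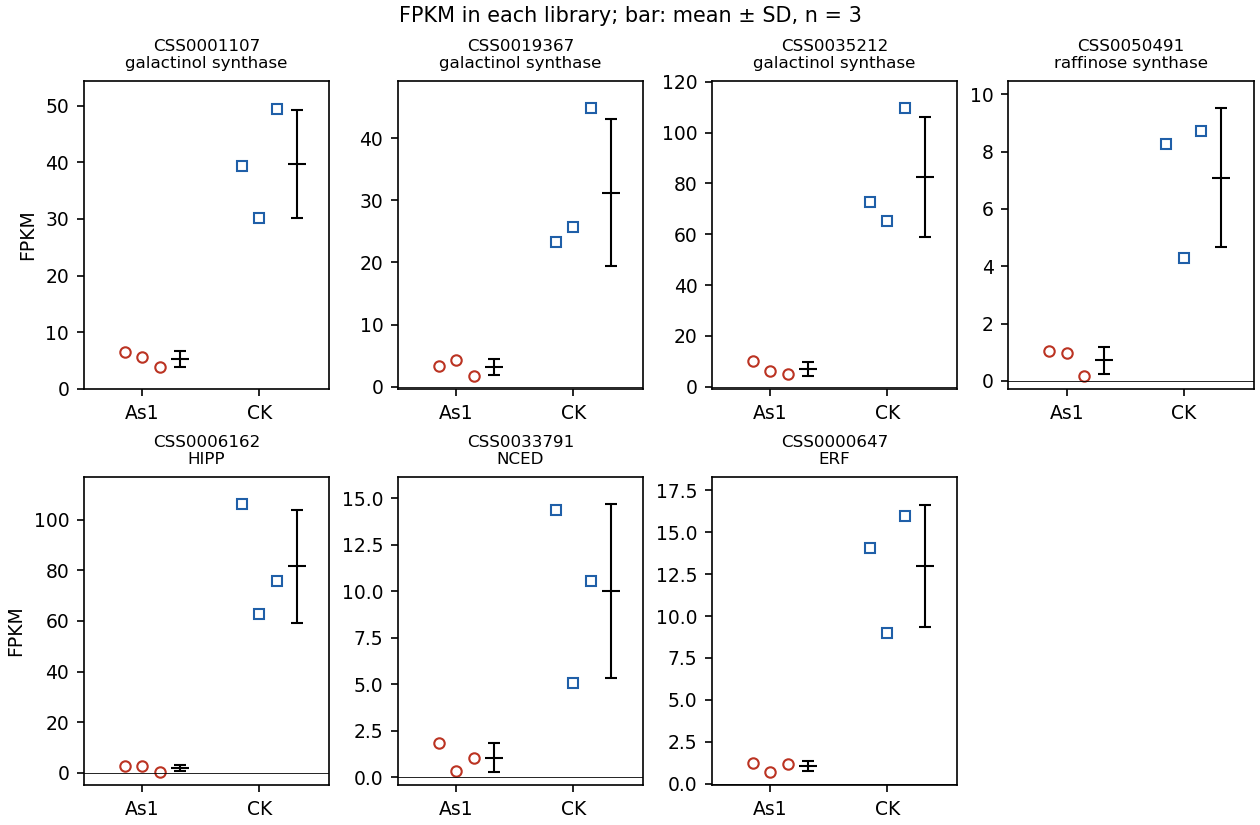
FPKM of 3 galactinol synthase genes, a raffinose synthase, a HIPP, an NCED and an ERF gene in each As1 library (red circles) and each CK library (blue squares), with the mean and SD of 3 libraries as a black bar. Each panel has its own axis from 0, and in every one the 3 As1 libraries lie below the 3 CK libraries.

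The 7 GolS, raffinose synthase, HIPP, NCED and ERF genes were also compared with the other treatments. All 7 were lower in As1 than in As2, by -3.82 to -6.59 on the log2 scale, with limma adjusted p between 1.93e-06 and 0.000291. The HIPP gene CSS0006162 had 366, 236 and 185 FPKM in the As2 libraries, and the GolS gene CSS0035212 had 392, 197 and 154 FPKM there. Their As2 libraries were thus all above their As1 and CK libraries. Against Cd1, none of the 7 passed the test. The difference of As1 from Cd1 was 0.00 for CSS0001107 (95% interval -0.60 to 0.60, not adjusted) and -0.36 for CSS0006162 (-1.21 to 0.49). Such intervals do not show that both treatments gave the same level. In Cd1 the HIPP gene had 2.60 and 2.14 FPKM and CSS0035212 had 5.98 and 9.17 FPKM, close to the As1 values.

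The spread in this fit was estimated over all 5 groups. When the duplicated values were also kept as Cd1 replicate 3, none of the 7 was called, with limma adjusted p between 0.05 and 0.141, at the same fold changes.

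Another 5 of the 22 genes are transcription factor genes selected for low levels under As in these libraries, and all 5 were DEGs lower in As1, with a median log2 fold change of -3.03. AP2/ERF proteins bind short GC-rich or drought-response elements in promoters, and MYB proteins regulate phenylpropanoid metabolism and stress genes. The AP2/ERF gene CSS0034513 had 8.10, 1.49 and 6.35 FPKM in the As1 libraries, against 79, 42.9 and 78.6 FPKM in the CK libraries. Its groups were far apart, and replicate 2 was the lowest of each. The log2 fold change was -3.57 ± 0.56 (SE), with a limma adjusted p of 0.00819.

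CSS0043971, also AP2/ERF, was nearly absent after 10 d of As. Its FPKM was 0.280, 0 and 0.907 in the As1 libraries, from 2, 0 and 7 fragments, against 10.1, 9.73 and 17.0 in the CK libraries, from 76, 61 and 123 fragments. A log2 fold change of -3.26 ± 0.46 (SE) resulted, with a limma adjusted p of 0.005, and the call held without any 1 of the 6 libraries. For CSS0009309, the remaining AP2/ERF gene, the As1 libraries had 18.8, 5.21 and 4.19 FPKM, against 99.3, 40.3 and 83.5 FPKM in the CK libraries. The groups did not overlap, but As1 replicate 1 stood above the other two. On the log2 scale As1 minus CK was -3.03 ± 0.61 (SE), with a limma adjusted p of 0.0256. Its limma adjusted p was 0.0665 without As1 replicate 2, 0.108 without As1 replicate 3, 0.0735 without CK replicate 1 and 0.0973 without CK replicate 3.

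The MYB gene CSS0030465 had 13.9, 17.3 and 14 FPKM in the As1 libraries, against 37.1, 32.1 and 48.6 FPKM in the CK libraries. Its log2 fold change was -1.31 ± 0.29 (SE), with a limma adjusted p of 0.0364. The call was lost whichever of the 6 libraries was left out, with adjusted p between 0.0548 and 0.139. The MYB gene CSS0032956 had 2.14, 2.85 and 0.452 FPKM in As1, against 9.28, 8.38 and 5.31 FPKM in CK. Its log2 fold change was -1.71 ± 0.38 (SE), with a limma adjusted p of 0.0392. That call was kept without As1 replicate 2 (limma adjusted p 0.0368) and lost without any of the other 5 libraries, where the adjusted p lay between 0.065 and 0.129.

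Between As1 and As2, none of these 5 transcription factor genes passed the test, with differences between -0.73 and 0.77. Their As2 means included 8.78 FPKM for CSS0030465 and 5.47 FPKM for CSS0034513, whose As1 means were 15.1 FPKM and 5.31 FPKM. CSS0032956 was lower in As1 than in Cd1 by -2.09, with a limma adjusted p of 0.0308. Its Cd1 libraries had 7.09 and 14.1 FPKM, above all 3 As1 libraries.

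A further 6 MYB genes, selected for low levels under Cd, gave no DEG in As1 vs. CK. Their median log2 fold change was -1.08, and the groups did not overlap in 4 of the 6. Of all genes tested, 12.0% did not overlap with As1 above CK and 12.6% with As1 below CK. The study selected these genes on libraries that include CK, so the count is a description. CSS0000442 came nearest to the threshold, with 2.36, 0.604 and 3.93 FPKM in the As1 libraries, against 14.5, 13.0 and 18.2 FPKM in the CK libraries. The groups were apart, and the log2 fold change was -2.43 ± 0.73 (SE), with a limma adjusted p of 0.0943. One As2 library of this gene had 40.3 FPKM, while the others had 3.14 and 3.49 FPKM, and all groups share the estimate of the spread. In a limma fit of the As1 and CK libraries alone the adjusted p was 0.0463.

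The other 5 of these MYB genes had smaller differences. CSS0002706 had a log2 fold change of -1.35 (limma adjusted p 0.255) and CSS0031744 one of -1.01 (0.11). For CSS0015964 the value was -1.11 (0.237), from at most 10 fragments in an As1 library. CSS0006502 had 5.11, 2.35 and 1.81 FPKM in As1, against 3.65, 5.72 and 15.4 FPKM in CK, so the groups overlapped, at a log2 fold change of -1.05 (limma adjusted p 0.294). CSS0043569 had 14.2, 11.5 and 15.6 FPKM in As1, against 15.7, 12.3 and 9.43 FPKM in CK, and its log2 fold change was 0.15 (limma adjusted p 0.841).

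The study describes 3 genes as highest at 10 d of Cd and As. Of these, the AP2/ERF gene CSS0018401 was called, and it was the only one of the 22 genes called higher. It was abundant in all roots, with 212, 297 and 278 FPKM in the As1 libraries, against 118, 137 and 118 FPKM in the CK libraries. The As1 mean of 263 ± 44.7 FPKM was 2.11 times the CK mean of 124 ± 11.3 FPKM (SD, n = 3 each). In the fit As1 minus CK came to 1.06 ± 0.19 (SE), just above the fold threshold, with a limma adjusted p of 0.015. The log2 value was 0.97 without As1 replicate 2, and the limma adjusted p was 0.0694, 0.0517 and 0.0645 without As1 replicate 3, CK replicate 1 and CK replicate 3. Cd1, As2 and Cd2 had means of 202, 215 and 286 FPKM, and As1 differed from As2 by 0.28 (limma adjusted p 0.461).

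The bHLH gene CSS0041447, from another family of transcription factors, had 47.4, 77.5 and 38.1 FPKM in the As1 libraries, against 26.8, 31.7 and 13.7 FPKM in the CK libraries. Its groups did not overlap, but the log2 fold change of 1.16 ± 0.37 (SE) had a limma adjusted p of 0.11. The AP2/ERF gene CSS0049619 had 108, 39.6 and 93.3 FPKM in As1, against 70.7, 118 and 177 FPKM in CK. These libraries overlapped, at a log2 fold change of -0.62 ± 0.46 (SE) and a limma adjusted p of 0.483. The means of CSS0049619 were 80.3 FPKM in As1 and 34.0 FPKM in Cd1, both below the 122 FPKM of CK.

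Calcineurin B-like (CBL) proteins bind calcium and pass the signal to protein kinases. The CBL gene CSS0004428 had 21.2, 37.1 and 3.83 FPKM in the As1 libraries, against 4.95, 2.19 and 4.95 FPKM in the CK libraries. As1 replicates 1 and 2 were above every CK library, and As1 replicate 3 lay among them. The log2 fold change was 1.72 ± 1.02 (SE), with a limma adjusted p of 0.374. The As2 libraries were as uneven, with 4, 48.3 and 62.7 FPKM.

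**Figure D4:**
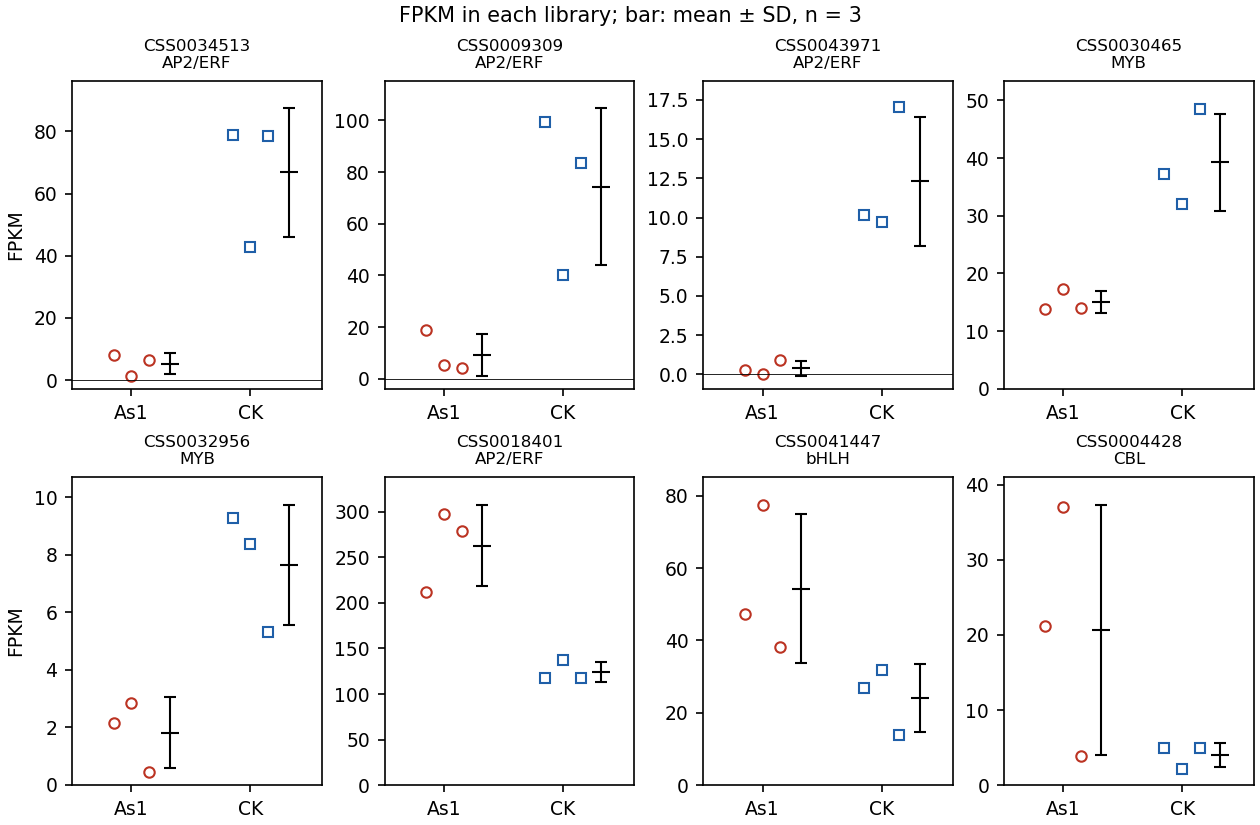
FPKM of 5 transcription factor genes called lower, of the AP2/ERF gene called higher (CSS0018401), and of a bHLH and a CBL gene that were not called, in each As1 library (red circles) and each CK library (blue squares), with the mean and SD of 3 libraries as a black bar. Each panel has its own axis, and only the CBL gene has As1 and CK libraries that overlap.

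The number of DEGs rested strongly on single libraries. Without As1 replicate 3 there were 23 higher and 115 lower DEGs, and without CK replicate 3 there were 33 higher and 131 lower. Without As1 replicate 1 the numbers were 60 and 311, without As1 replicate 2 they were 78 and 387, without CK replicate 1 they were 64 and 212, and without CK replicate 2 they were 64 and 169. Of the 591 DEGs, 128 were still called without As1 replicate 3 and 323 without As1 replicate 2. Only 17 higher and 74 lower DEGs were called in all 6 fits. Among them were the 4 genes of largest log2 fold change, the 3 GolS genes, the HIPP, the NCED and the ERF gene. The AP2/ERF genes CSS0034513 and CSS0043971 were also among them. The lower side outnumbered the higher side in every one of these fits.

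As1 replicate 3 was the lowest of the 3 As1 libraries in 217 of the 471 lower DEGs, As1 replicate 2 in 143 and As1 replicate 1 in 56, with 55 ties. In CK, the highest library was replicate 3 in 202 of them, replicate 1 in 163 and replicate 2 in 106. As1 replicate 3 was the deepest of the 6 libraries, with 13367944 fragments, and CK replicate 3 held 12260140. The part of depth in these counts was not tested.

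**Figure D5:**
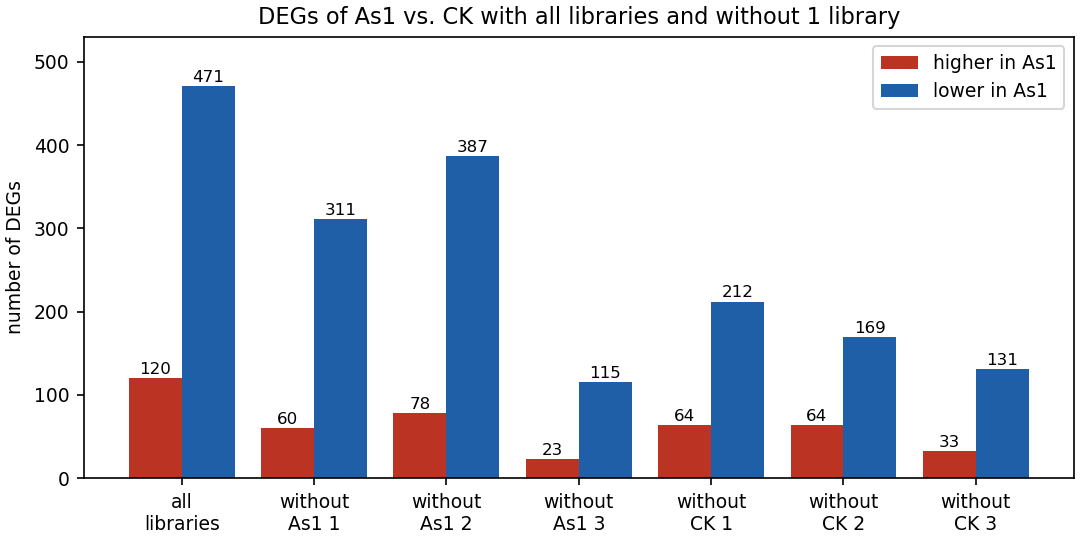
Number of DEGs higher (red) and lower (blue) in As1 than in CK with all libraries and with 1 of the 6 libraries left out, on a linear axis from 0. The number was smallest without As1 replicate 3, with 23 higher and 115 lower, and largest with all libraries, with 120 higher and 471 lower.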

How the data were processed

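Per the labels, mRNA-seq libraries were made from root RNA. Trimmed reads were aligned by the authors to a tea genome with HISAT, and 1 FPKM value per gene and library was deposited. A package for count data is named for that step, with no further detail. The genome version is not given in the sources used here. FPKM are not counts, so they were not tested with a count model. The FPKM of all 46517 genes above 0 fitted whole numbers of fragments within 0.001 of a fragment, plus 1e-07 for each fragment of the value. The smallest such numbers were taken, which are a lower limit and are no check for the 2099 genes above 0 in only 1 library, while 40857 genes were above 0 in at least 5. They gave the depth of each library and the voom alternative. Medians of library ratios lay between 1.012 and 1.016, so the libraries had been scaled to each other.

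The tables list 59128 genes, 50525 with CSS identifiers and 8603 without one. The deposited gene models hold none of these CSS identifiers, so no coordinates or sequences are given. Of 15 labelled libraries, 14 were used: the values labelled Cd1 replicate 3 equal those of Cd2 replicate 1 and entered once.

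Log2(FPKM + 1) was fitted in R 4.3.3 with limma 3.58.1 (lmFit, contrasts.fit, eBayes with trend) over 5 groups, without a replicate block, after a filter of FPKM of at least 1 in 3 of the 6 As1 and CK libraries. FDR was Benjamini-Hochberg over 28896 genes, with 12.6 degrees of freedom. DEGs had an FDR under 0.05 and an absolute log2 fold change over 1. The number of detected genes was compared with an exact permutation test (scipy 1.17.1). The fit was tested on simulated data. Named genes were the 22 that the study names by identifier and 2 CSS genes in each direction. The latter had the largest absolute log2 fold change among DEGs without overlap. The members, lists and tests were chosen with earlier results of these data known. Alternatives covered pseudocount, filter, scaling, libraries in the fit, thresholds, voom and leaving out each library. Whether replicate numbers pair the libraries was checked and is given with the alternatives.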

Additional observations from a re-analysis of the deposited data

Results flagged for a closer look

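The following differences between As1 and another treated group passed the limma test of the difference itself, in a fit where all contrasts share the As1 libraries. Log2 differences of As1 minus As2 were -4.04, -4.34 and -4.89 for the galactinol synthase genes CSS0001107, CSS0019367 and CSS0035212. They were -3.82 for the raffinose synthase gene CSS0050491, -4.11 for the NCED gene CSS0033791, -6.59 for the HIPP gene CSS0006162 and -4.55 for the ERF gene CSS0000647. The study had selected all of these genes on these same libraries for a rise from 10 d to 15 d. Their passing the test is therefore not independent evidence. For CSS0041307, which has no product paired here, the value was -3.99. Both genes of largest log2 increase were higher in As1 than in As2, by 4.18 for CSS0047406 and 4.61 for CSS0012297. The same genes were higher in As1 than in Cd1, by 4.97 for CSS0047406 and 4.94 for CSS0012297. The MYB gene CSS0032956 was lower in As1 than in Cd1, at -2.09. The 10 d and 15 d roots differ in time of harvest as well as in exposure, and these cannot be told apart.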

How the results depend on the processing

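The counts of 120 higher and 471 lower DEGs depended on the libraries and thresholds. Leaving out 1 of the 6 libraries gave 23 to 78 higher and 115 to 387 lower DEGs. Without a filter on low FPKM there were 71 higher and 305 lower, with only the As1 and CK libraries 50 and 202, and with only As1, As2 and CK 62 and 271. With the fold threshold kept, an FDR under 0.01 gave 19 and 86, and an unadjusted p under 0.05 gave 465 and 1749. The number of lower DEGs was 295 when the duplicated values entered under both labels, 710 with array weights and 240 with limma-voom on fragments. The lower DEGs were 79.7% of all, and 67.2% under quantile normalization (157 higher, 321 lower), which moved the median of all genes to 0.07. Lower DEGs outnumbered higher ones in all 23 alternatives. The replicate block gave 84 higher and 340 lower DEGs. A pairing of the libraries by replicate number was not seen, but 3 libraries per group are too few to exclude one. The correlations of deviations between same-numbered libraries were -0.16, 0.10 and 0.14, and those between other libraries ranged from -0.29 to 0.22. Only 1 of the 3 As1 libraries correlated best with the CK library of its own number. Of 588 values of named genes under alternatives, 534 kept direction and side of the threshold, 48 fell short of it and 5 passed it. The exception in direction was CSS0043569, never called, at 0.15, which ranged between -0.021 without CK replicate 3 and 0.32 without CK replicate 1, for which the cause was not tested. The decrease in genes above 0 kept its direction under all 11 alternatives. Depth limits the lowest values, such as the As1 values of CSS0043971, which rest on 0 to 7 fragments.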
